A study of Homo sapiens with 2 samples.

Results

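The vehicle cells in G2 and M phase were 517 cells of a vehicle-treated breast cancer culture whose deposited phase call was G2M, out of 2822 vehicle cells and 5985 cells in the whole series. They were chosen by that call alone and are described here across genes against the 1032 vehicle cells called G1. MDA-MB-453, the line used, is an established human line from breast cancer that the submitters call triple-negative and wild-type, and it was grown in medium with fetal bovine serum. One culture received vehicle (water) and 1 culture received the inflammatory cytokines IL1β and TNFα, each at 10 ng/ml, and both were collected after 24 hours. Transcripts of each cell were captured in droplets, read from the 3′ end and counted by their unique molecular identifiers (UMIs), 1 for each molecule. Each condition was 1 culture and 1 library, so the vehicle values have no replicate, no p-value is given, and every interval is an exact 95% interval that covers counting error only.

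A dividing cell copies its DNA in S phase, checks and completes the copy in G2 and separates the chromosomes in mitosis. Entry into mitosis is driven by CDK1 with cyclins A and B and is helped by the kinases PLK1 and AURKA. The anaphase-promoting complex (APC/C) then marks cyclins and securin for destruction, which lets the chromosomes part and the cell divide. Many genes of these steps are transcribed late in the cycle, and a set of them shares a promoter element called the cell cycle genes homology region (CHR), which is bound by the DREAM and MYB-MuvB complexes.

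The G2M call follows from measured RNA. In all 5985 cells the deposited phase was G2M or S by the larger of 2 deposited scores, and G1 where both were below 0. The scores were averages, less those of control genes, over genes of the widely used G2 and M list and S list, so a higher level of a listed gene in G2M cells is a description of how the cells were chosen. Which version of those lists was used is not given in the sources used here, and all 100 genes of either published version that the matrix held were treated as scored. Of 4 genes taken as markers of these cells, TOP2A, MKI67 and CENPF were scored and PLK1 was not.

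All 4 markers were highest in G2M cells, which for TOP2A, MKI67 and CENPF describes how the cells were chosen. Levels are given as UMIs per 1000000 UMIs of the summed cells (CPM). TOP2A, the topoisomerase that untangles sister chromosomes, was at 7.78 CPM in G1 cells, 44.6 in S cells and 198 in G2M cells. MKI67, which coats mitotic chromosomes, was at 33.5, 113 and 364 CPM in the same order. CENPF, a kinetochore protein, was at 51.0, 105 and 577 CPM. PLK1, a kinase of mitotic entry and spindle assembly, was at 5.64, 13.5 and 142 CPM, a 25.3-fold difference between G2M and G1 cells (20.9 to 30.9) in a gene that the score did not use. PLK1 had a UMI in 80.1% of G2M cells and in 10.3% of G1 cells, at median depths of 21756 and 18486 UMIs per cell. On counts drawn down to 14000 UMIs in every cell, which kept 489 of 517 G2M and 963 of 1032 G1 cells, those shares were 73.0% and 8.20%.

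Among the vehicle cells 18.3% were called G2M (16.9 to 19.8%), 45.1% S and 36.6% G1. In the cytokine-treated library 40 of 3163 cells were called G2M, which is 1.26% (0.905 to 1.72%). Few G2M cells lay near the phase cut. Scores within 0.05 of another call were found in 14 of 517, compared with 97 of 1032 G1 cells and 82 of 1273 S cells. The S score was also above 0 in 325 of the G2M cells (62.9%). A cell barcode was found in both libraries 8 times, and 1 of these was a vehicle G2M cell. No doublets were removed for this description, and their part in the values was not tested.

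G2M cells held more RNA than G1 cells. Their median was 21756 UMIs per cell (from 9426 to 36534) against 18486 in G1 cells and 21047 in S cells, a ratio to G1 of 1.18. Their median number of genes was 4291, against 3759 in G1 cells. The 164 G2M cells of deposited cluster 5 went the other way in UMIs, with a median of 17408.5, under that of G1 cells. The study removed cells with 5000 or more genes, and 51 G2M cells (9.86%) had 4800 or more, compared with 30 G1 cells (2.91%). Cells beyond that limit were not analysed here. The mitochondrial share was close in both, with medians of 6.31% in G2M and 6.40% in G1 cells. Ribosomal protein genes took 28.5% of the UMIs of G2M cells and 31.4% of those of G1 cells. The vehicle G2M cells summed to 11196572 UMIs and the G1 cells to 20051561.

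**Figure D1:**
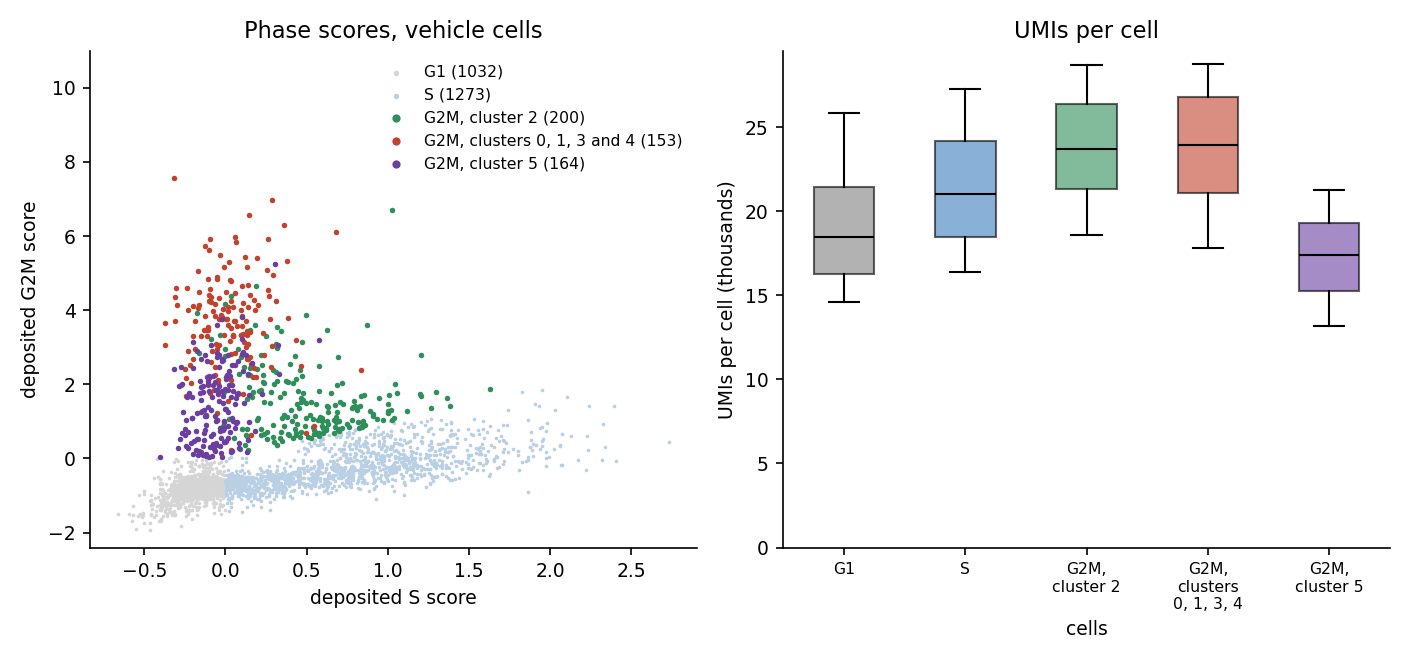
Deposited S score (x) against G2M score (y) of the 2822 vehicle cells, both without units (left), and UMIs per cell (in units of 1000) for G1, S and the G2M cells of each deposited cluster group (right), with boxes from the 25th to the 75th percentile, a line at the median and whiskers from the 10th to the 90th. G2M cells of cluster 5 had a median of 17408.5 UMIs, under the 23722.5 of those in cluster 2.

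Of 9160 genes at 5 CPM or more in G1 or G2M cells, 943 (10.3%) were at least 1.5-fold higher in G2M cells with the interval on the same side of no difference, and 333 (3.64%) were lower by the same rule. The median log2 ratio of G2M over G1 was 0.06 over all measured genes. The higher side held the large ratios, with 400 genes at 2-fold or more against 61 on the lower side, and 161 at 4-fold or more against 4. Without the scored genes the counts were 858 higher and 332 lower of 9062. Of the 943 higher genes, 361 were also at least 1.5-fold higher than in S cells and 52 were lower than in S cells. On the scale of UMIs per cell, which keeps the larger number of UMIs in G2M cells, 1510 genes were higher and 166 lower.

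**Figure D2:**
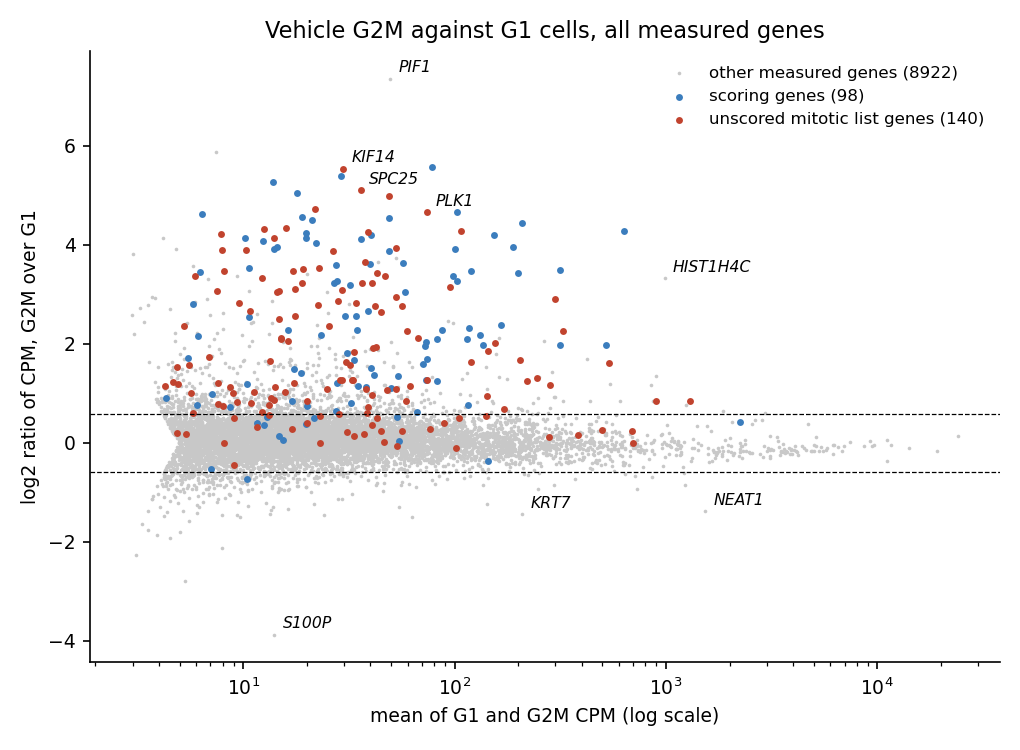
Log2 ratio of CPM of vehicle G2M over G1 cells (y) against the mean of both CPM values (x, log scale) for 9160 measured genes. Red points are the 140 unscored genes of the mitotic lists, blue points the 98 measured scoring genes, and dashed lines mark 1.5-fold. The red points lie mostly above the upper line, up to KIF14 at 5.54.

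The 7 lists of mitotic genes, by role, held 140 measured genes that the score did not use. In G2M cells 110 of them were higher and 0 were lower, with a median log2 ratio of 1.26, a 2.40-fold difference, against 10.3% higher and a median of 0.06 over all measured genes. The unscored gene of highest ratio stood outside these lists. PIF1, a DNA helicase that acts in genome maintenance, was at 0.598 CPM in G1 cells, 0.805 in S cells and 98.2 in G2M cells, a 164-fold difference from G1 (93.6 to 319). Its 1100 UMIs in G2M cells were spread over 256 cells (49.5%), with 16 in the highest cell. In G1 cells 12 UMIs lay in 12 cells (1.16%). On counts drawn down to 14000 UMIs the shares of cells with a PIF1 UMI were 45.6% and 0.727%.

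The 20 unscored genes of highest ratio at 20 CPM or more were mostly parts of the mitotic machinery. After PIF1 came KIF14, a kinesin motor of the central spindle, at 4.94 and 58.0 CPM in S and G2M cells and with 25 UMIs over all G1 cells, a 46.5-fold difference between G2M and G1. SPC25, a subunit of the NDC80 kinetochore complex, was at 2.04, 26.0 and 70.1 CPM. CCNA2, cyclin A2, was at 2.99, 27.0 and 94.8 CPM. All 3 were lowest in G1 and highest in G2M cells, with SPC25 and CCNA2 already at an intermediate level in S cells. KIF20A, a kinesin of cytokinesis, was at 1.60 CPM in G1, 3.77 in S and 41.9 in G2M cells. The list went on with PLK1, PRR11, SKA1, ASPM, CEP55, DEPDC1B, PRC1, KNL1, CDKN2D, PBK, MXD3, BUB1B, KIFC1, CDCA5 and SGO1, at log2 ratios from 4.66 down to 3.43. CDKN2D, an inhibitor of the G1 kinases CDK4 and CDK6, was at 7.43 CPM in G1, 21.2 in S and 98.2 in G2M cells.

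**Figure D3:**
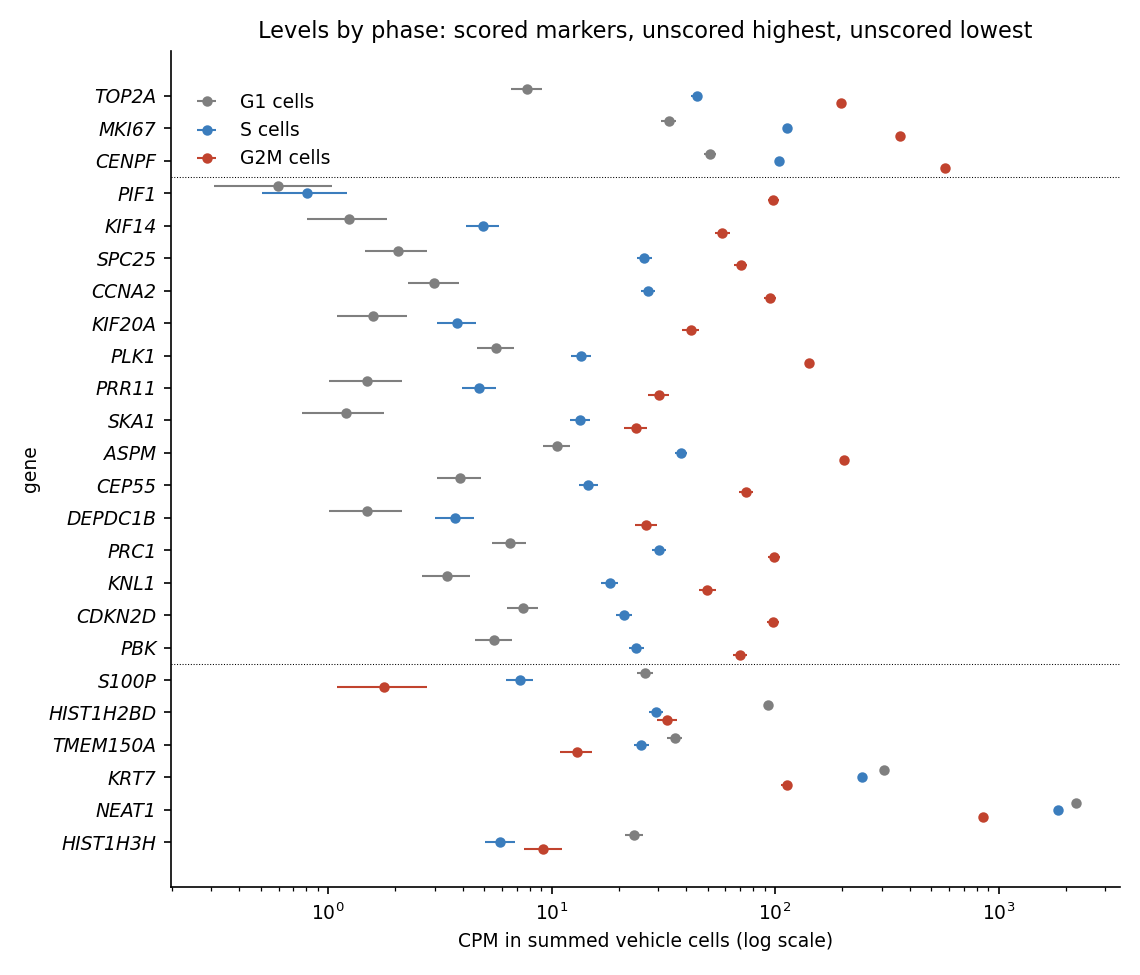
CPM in summed vehicle G1, S and G2M cells (x, log scale) for 3 scored markers, the 15 unscored genes of highest ratio and the 6 of lowest ratio, as points with exact 95% counting intervals. PIF1 sits at 0.598 and 0.805 CPM in G1 and S cells and at 98.2 in G2M cells.

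The promoters of these highest genes are shown because the cells were chosen by RNA alone, and their sequence is a feature the choice did not use. The last 150 bases before the transcript start listed by RefSeq (build GRCh38.p14) are printed 5′ to 3′ on the gene's strand. Capitals mark TTTGAA or TTCGAA, the letters of the CHR searched here, and CCAAT, the NF-Y box, each on either strand. The first 4 are all those of the 20 highest genes that held these CHR letters in this stretch and touched annotated exons by at most 30 bases. The last 2 held neither TTTGAA nor TTCGAA, and other forms of the element were not searched.
ASPM, chr1:197146670-197146819, minus strand: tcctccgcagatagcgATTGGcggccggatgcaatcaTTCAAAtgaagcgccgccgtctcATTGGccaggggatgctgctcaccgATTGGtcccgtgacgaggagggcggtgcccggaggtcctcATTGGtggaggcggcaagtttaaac
CEP55, chr10:93496462-93496611, plus strand: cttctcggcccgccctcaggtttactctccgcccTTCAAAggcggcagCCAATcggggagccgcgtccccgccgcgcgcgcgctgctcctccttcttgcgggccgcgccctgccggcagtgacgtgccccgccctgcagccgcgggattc
PIF1, chr15:64825648-64825797, minus strand: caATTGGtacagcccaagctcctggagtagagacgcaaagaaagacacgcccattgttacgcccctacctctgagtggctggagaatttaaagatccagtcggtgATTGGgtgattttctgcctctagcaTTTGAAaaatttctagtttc
PRR11, chr17:59155596-59155745, plus strand: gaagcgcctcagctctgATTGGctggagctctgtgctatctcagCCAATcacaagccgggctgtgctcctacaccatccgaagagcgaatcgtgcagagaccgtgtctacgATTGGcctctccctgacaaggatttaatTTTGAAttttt
CCNA2, chr4:121823884-121824033, minus strand: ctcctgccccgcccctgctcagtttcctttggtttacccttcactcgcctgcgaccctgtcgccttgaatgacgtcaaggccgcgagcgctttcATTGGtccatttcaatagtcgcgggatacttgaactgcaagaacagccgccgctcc
KIF20A, chr5:138178962-138179111, plus strand: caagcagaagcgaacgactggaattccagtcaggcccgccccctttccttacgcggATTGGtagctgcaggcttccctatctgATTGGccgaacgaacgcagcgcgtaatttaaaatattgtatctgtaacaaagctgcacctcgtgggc
In PIF1 the CHR began 20 bases before the transcript start used here and CCAAT boxes 45 and 148 bases before it. That start lies inside the annotated PIF1 gene, which reaches upstream to base 64827062 of chromosome 15. For each gene 1 start was used, and sequence before other starts was not searched. In PRR11 the CHR began 11 bases and the nearest CCAAT box 39 bases before the start. ASPM carried 4 CCAAT boxes within the stretch.

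Over the RefSeq window from 250 bases before to 50 after the start, 18 of the 20 highest unscored genes had a sequence. The CHR letters were in 14 of these 18 (77.8%), compared with 799 of the 7332 measured genes with a sequence (10.9%) and 16.6% of all 27305 promoters in the table. CCAAT was in 15 of 18 (83.3%), against 38.3% of measured genes and 35.7% of all promoters. Among unscored mitotic list genes, 52 of 92 that were higher in G2M cells held the CHR letters (56.5%), and 2 of 28 that were not held them (7.14%). Of the unscored replication list genes that were higher, 0 of 18 held them, although 7 held CCAAT. Outside the mitotic lists the letters were in 116 of 583 unscored higher genes (19.9%), in 15 of the 44 that were 4-fold or more higher (34.1%), and in 17 of 222 lower genes (7.66%). A match of these letters is a description and does not show binding. CCNA2 and KIF20A, without a match, were among the 5 highest. Since other forms of the CHR were not searched, the lack of a match does not show that a promoter lacks the element.

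The lists are described by role, beginning with mitotic entry. Each count of G2M against G1 cells stands beside 10.3% higher and 3.64% lower over all measured genes. CCNB1, cyclin B1, the partner of CDK1, was unscored and stood at 19.2 CPM in G1, 23.7 in S and 171 in G2M cells. It had a UMI in 86.8% of G2M and 26.5% of G1 cells, and in 78.3% and 21.0% on counts drawn down to 14000 UMIs. In this list 17 of 21 unscored measured genes were higher and 0 lower, with a median log2 ratio of 1.93. The CDC25 phosphatases, which activate CDK1, differed among themselves. CDC25B went from 17.7 to 27.7 and 67.3 CPM through G1, S and G2M, while CDC25A peaked in S cells at 16.4 CPM and was at 3.79 in G1 and 7.59 in G2M. PKMYT1, a kinase that holds CDK1 back, was at 10.8 CPM in G1, 71.0 in S and 73.0 in G2M cells. WEE1, with the same task, was at 18.9, 27.4 and 27.4 CPM and did not reach the 1.5-fold limit. FOXM1 and MYBL2, transcription factors of late cell cycle genes, had log2 ratios of 2.11 and 1.24. LIN37, a subunit of the DREAM complex, was at 10.4 CPM in G1 and 7.68 in G2M, the lowest ratio of all unscored mitotic genes (log2 -0.44).

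Spindle genes had a median log2 ratio of 2.36, and 21 of 23 were higher. Motors and microtubule binders led, among them ASPM, which focuses spindle poles, at 10.5, 38.0 and 204 CPM in G1, S and G2M cells. PRC1, which bundles the midzone microtubules, was at 6.48, 30.2 and 99.0 CPM. The tubulins themselves differed less. TUBA1B was at 934, 905 and 1671 CPM and TUBB at 263, 547 and 807. Among G1 cells the TUBA1B level differed by deposited cluster, as given below. STMN1, which takes microtubules apart, was at 646, 595 and 1152 CPM. NUMA1, a pole protein that is also nuclear in interphase, was not called, at 41.3 and 48.8 CPM in G1 and G2M.

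Kinetochore genes, whose products tie chromosomes to the spindle, were higher in 25 of 29 cases with a median of 1.31. SKA1, which couples kinetochores to microtubule ends, was at 1.20, 13.5 and 23.8 CPM in G1, S and G2M cells. KNL1, the platform that recruits checkpoint proteins, was at 3.39, 18.3 and 49.8 CPM. CENPC, which links centromeric chromatin to the outer kinetochore, differed less, at 9.68 and 14.8 CPM in G1 and G2M. NSL1, a subunit of the MIS12 complex, was at 52.1 and 61.2 CPM and was not called. The scored genes of highest ratio included CENPA, the centromere histone, at 3.19, 19.1 and 153 CPM, HMMR, PIMREG, AURKB, TOP2A and NDC80, with log2 ratios from 5.58 down to 4.62, which describe the choice of cells.

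In the checkpoint and APC/C list 11 of 24 unscored genes were higher, 0 were lower and the median was 0.40. Regulators and substrates of the complex were on the higher side. BUB1B, a kinase of the spindle checkpoint, was at 3.64, 14.9 and 41.8 CPM in G1, S and G2M cells, and MAD2L1 at 20.5, 60.9 and 98.2. ESPL1, the separase that cuts cohesin, was at 0.798, 6.55 and 14.9 CPM. UBE2S, the enzyme that extends ubiquitin chains for the APC/C, was at 70.9, 122 and 528 CPM. PTTG1, securin, was at 173 CPM in G1, 57.5 in S and 390 in G2M cells, so its lowest level was in S. Of the core subunits of the APC/C, ANAPC2 was at 8.18 and 8.13 CPM and ANAPC15 at 54.3 and 52.1 in G1 and G2M, and neither was called. CDC27 (30.8 and 64.9 CPM) and CDC23 (7.93 and 13.9 CPM) were core subunits that were higher.

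Chromosome structure genes were higher in 15 of 18 cases with a median of 1.26. ESCO2 and CDCA5 (sororin), which establish cohesion on copied DNA, were at 14.0 and 34.9 CPM in S cells and 14.8 and 31.7 in G2M cells, against 0.997 and 2.84 in G1. SGO1, the shugoshin that protects centromeric cohesin, was at 7.33, 36.6 and 79.0 CPM. RAD21, the cohesin subunit that separase cuts, was at 61.3, 92.3 and 248 CPM. Of cytokinesis genes 9 of 12 were higher, with the highest list median, 3.15. CEP55, which organises the last bridge between daughter cells, was at 3.89, 14.6 and 74.1 CPM. RHOA, CHMP4B and VPS4A, which also act outside division, were the 3 not called. Of centrosome genes 12 of 13 were higher with a median of 1.13, among them PLK4, the kinase of centriole copying, at 2.34, 10.9 and 16.7 CPM.

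**Figure D4:**
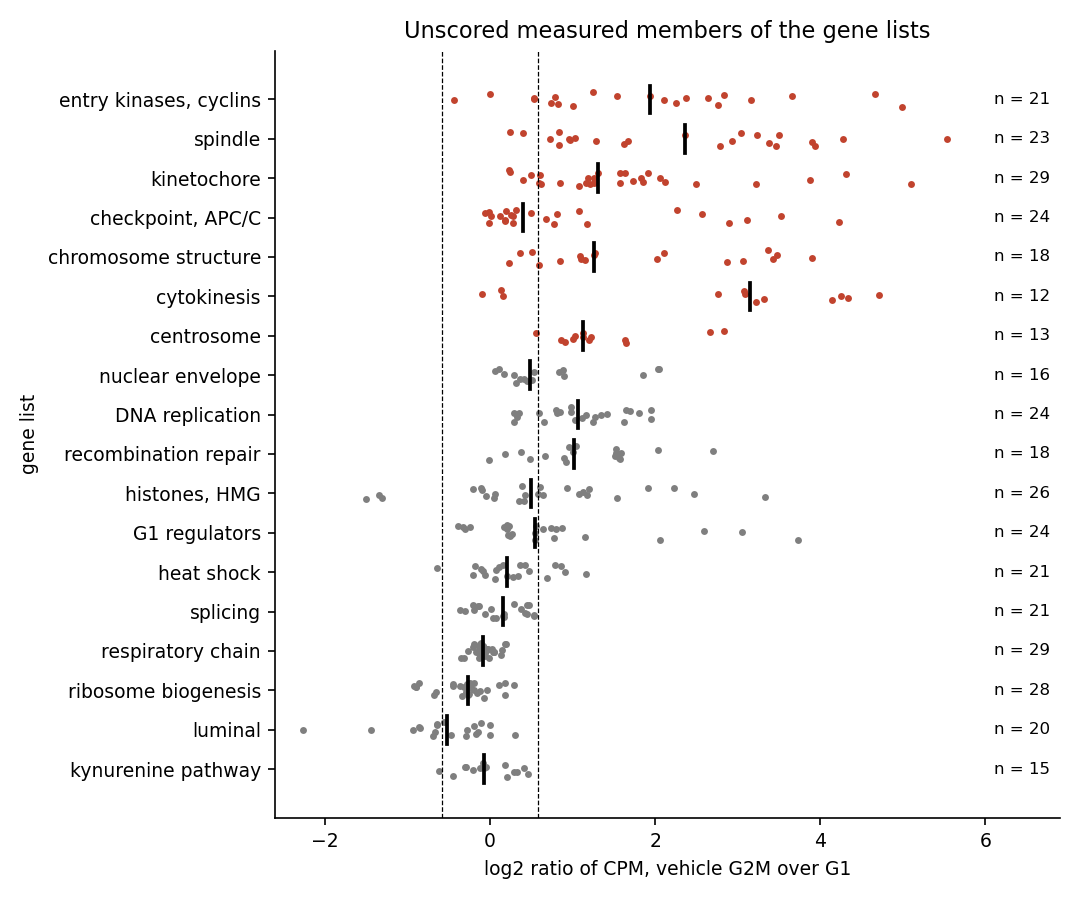
Log2 ratio of CPM of vehicle G2M over G1 cells (x) for the unscored measured members of 18 gene lists (rows), 1 point per gene with a bar at the list's median and dashed lines at 1.5-fold. Cytokinesis (median 3.15) and spindle genes (2.36) lie highest, and luminal genes (-0.52) lowest.

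Most S phase genes were above their G1 level in G2M cells and under their S level. Of 24 unscored replication genes 20 were higher than in G1 cells and 0 lower, with a median log2 ratio of 1.07, and 23 of the 24 were highest in S cells. Recombination repair genes were higher in 14 of 18 cases with a median of 1.02. RAD54L, a motor protein of recombination, was at 1.20, 14.4 and 7.77 CPM in G1, S and G2M cells. Among nuclear envelope genes 6 of 16 were higher, led by KPNA2, an importin, at 103, 150 and 425 CPM, while LMNA, lamin A and C, was at 335 and 348 in G1 and G2M.

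Histone genes differed in both directions, with 12 of 26 unscored histone and HMG genes higher and 3 lower. HIST1H4C, which encodes a replication-dependent histone H4, was at 179, 1523 and 1793 CPM in G1, S and G2M cells. HIST1H2BD went the other way, at 93.2, 29.3 and 32.8 CPM, and HIST1H2AC stood at 77.6, 14.4 and 31.4. The kit primes on poly(A) tails, which most replication-dependent histone RNAs lack, so these values count only their polyadenylated or internally primed copies. The variant H2AFX, which marks DNA breaks when phosphorylated and is named here after its values were seen, was at 28.3, 88.6 and 157 CPM.

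Beside 10.3% higher and 3.64% lower over all measured genes, 10 of 24 unscored regulators of G1 were higher and 0 lower. Besides CDKN2D these included CDKN2C, an inhibitor of the same kinases, at 5.39, 15.2 and 44.6 CPM. CCND1, cyclin D1, which drives G1 with those kinases, was at 608 and 482 CPM in G1 and G2M cells (log2 -0.33, not called). Of heat shock genes 5 of 21 were higher and 1 was lower. HSPA1A, an inducible HSP70, was at 29.0, 35.1 and 64.7 CPM, and HSPB1, a small heat shock protein, at 273, 157 and 174. No splicing, immediate early or respiratory chain gene of the 21, 21 and 29 measured was called in either direction, and 0 of 82 ribosomal protein genes were, although 78 of these 82 were below 0. The heat shock, splicing, immediate early and respiratory chain counts are too small to be read as more or less than the shares above.

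The 12 unscored genes of lowest ratio included S100P, the keratin KRT7, the nuclear RNA NEAT1 and histone genes. In the luminal list 0 of 20 genes were higher and 9 were lower, with a median log2 ratio of -0.52, against 3.64% lower over all measured genes. KRT7, a simple epithelial keratin, was at 306, 245 and 113 CPM in G1, S and G2M cells. KRT19, KRT8 and KRT18, its relatives, named after their values were seen, were at 962, 379 and 779 CPM in G1 and 502, 209 and 500 in G2M cells. XBP1 and AGR2, factors of the secretory pathway, were at 1060 and 874 CPM in G1 and 656 and 550 in G2M. FOXA1, a transcription factor of luminal cells, was at 171 CPM in both G1 and G2M. No member was higher under any scaling tried, with 5 lower and 0 higher on UMIs per cell and 10 lower with TMM factors.

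NEAT1, the nuclear RNA that builds paraspeckles, was at 2214 CPM in G1, 1841 in S and 853 in G2M cells, a 2.60-fold lower level in G2M than in G1. Its median was 36 UMIs per G1 cell and 16 per G2M cell, and it was found in every cell of both. SNHG19, a host gene of small nucleolar RNAs, was at 200, 105 and 84.4 CPM. Ribosome biogenesis genes were higher in 0 and lower in 6 of 28 cases, with a median of -0.27. Over all measured genes 10.3% were higher and 3.64% lower. MYBBP1A and RRP12, which act in the nucleolus, had the lowest ratios of this list, from 6.28 to 3.30 and from 10.5 to 5.63 CPM. The list median was -0.11 with UMIs per cell and 4 genes were then lower.

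Some genes lower in G2M cells had most of their G1 UMIs in few cells. S100P, a calcium-binding protein with the lowest ratio of all (log2 -3.88), was at 26.2 CPM in G1 and 1.79 in G2M cells. Its G1 UMIs, 526 in all, lay in 46 cells, and 10 of those cells held 469 of them. S100A9, a subunit of calprotectin, was at 12.9 CPM in G1 and 2.95 in G2M cells, and 3 G1 cells held 153 of its 258 UMIs. TFF1, a secreted trefoil peptide, was at 71.9 and 39.9 CPM with 296 of 1442 G1 UMIs in 1 cell. PIP had 55 of 103 G1 UMIs in 3 cells. In these genes the difference between phases cannot be told apart from the presence of a few high cells.

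The study's question concerned TDO2, the enzyme that opens the tryptophan ring in the kynurenine pathway. TDO2 was at 11.8 CPM in G1, 6.73 in S and 11.2 in G2M vehicle cells, a log2 ratio of G2M over G1 of -0.08 (-0.40 to 0.24) that held 0. It had a UMI in 34 of 517 G2M cells (6.58%, 4.60 to 9.07%) and 48 of 1032 G1 cells (4.65%, 3.45 to 6.12%). In G2M cells 69 of its 125 UMIs lay in 3 cells. KMO was at 11.1 and 10.2 CPM and KYNU, with 97 and 35 UMIs, at 4.84 and 3.13 in G1 and G2M. In the whole pathway list 0 of 15 genes were higher and 1, AFMID, was lower, at 9.87 and 6.43 CPM. Over all measured genes 10.3% were higher and 3.64% lower, and these counts are too small to be read as more or less. S100A8 was at 2.84 and 0.982 CPM on 57 and 11 UMIs. The 40 cytokine-treated G2M cells had TDO2 at 521 CPM and S100A9 at 2962 CPM, with PLK1 at 150 and NEAT1 at 858 CPM. Cytokine treatment and library cannot be told apart, and neither ratio to vehicle was tested.

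Inside the G2M call the cells were not alike. The deposited clusters were made on the same counts, so the genes below describe the split and do not test it, and those outside the naming rule were chosen after their values were seen. Cluster 2 held 200 G2M cells (38.7%), cluster 5 held 164 (31.7%) and clusters 0, 1, 3 and 4 together held 153 (29.6%). Cluster 2 cells had the highest S score (median 0.47) and a G2M score of 1.34. In these HIST1H4C was at 3675 CPM, against 588 in clusters 0, 1, 3 and 4 and 213 in cluster 5. FBXO5, the APC/C inhibitor EMI1, was at 52.3, 26.4 and 3.82 CPM in that order.

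G2M cells in clusters 0, 1, 3 and 4 had the highest G2M score, with a median of 3.70, and 23943 UMIs per cell. TOP2A was at 326 CPM there, compared with 183 in cluster 2 and 62.2 in cluster 5. PIF1 was at 180 CPM there, 91.7 in cluster 2 and 6.25 in cluster 5, a 28.9-fold difference between the first and the last. UBE2C, an E2 enzyme of the APC/C, was at 719, 345 and 93.1 CPM in the same order and AURKA at 329, 126 and 114. Both were scored, as was TOP2A, so their levels are part of the G2M score of these cells. PLK1, unscored, was at 226, 91.7 and 121 CPM in that order, so it was not lowest in cluster 5.

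G2M cells in cluster 5 had fewer UMIs than the other G2M cells, with a median of 17408.5 UMIs and 3934 genes. G1 cells of the same cluster had a median of 17772 UMIs. Of all 9252 genes measured in this split, 1140 were higher and 633 lower in cluster 5 than in cluster 2. Of 141 unscored mitotic list genes 14 were higher and 39 lower, with a median log2 ratio of -0.16 against 0.13 over all genes measured there. Among those higher in cluster 5, PTTG1 was at 685 CPM there, 409 in clusters 0, 1, 3 and 4 and 195 in cluster 2. CCNB1 was at 268, 214 and 78.2 CPM in the same order. CDC20, the activator of the APC/C at anaphase, is a scored gene outside that count and was at 297, 221 and 77.3. The nuclear RNA MALAT1 was at 15216 CPM in cluster 5, below 28863 in clusters 0, 1, 3 and 4 and 28653 in cluster 2. MALAT1 also had the highest ratio of variance to mean over G2M cells, 39.7 times the median of the 200 genes nearest in level. That median, 2.05, was the same for MALAT1 at 349 UMIs per thinned cell and for HIST1H4C at 23.8. Spread and level therefore cannot be told apart in this ratio. HIST2H2BE and HIST1H2AC were at 63.6 and 84.1 CPM in cluster 5 and at 3.39 and 8.90 in cluster 2.

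**Figure D5:**
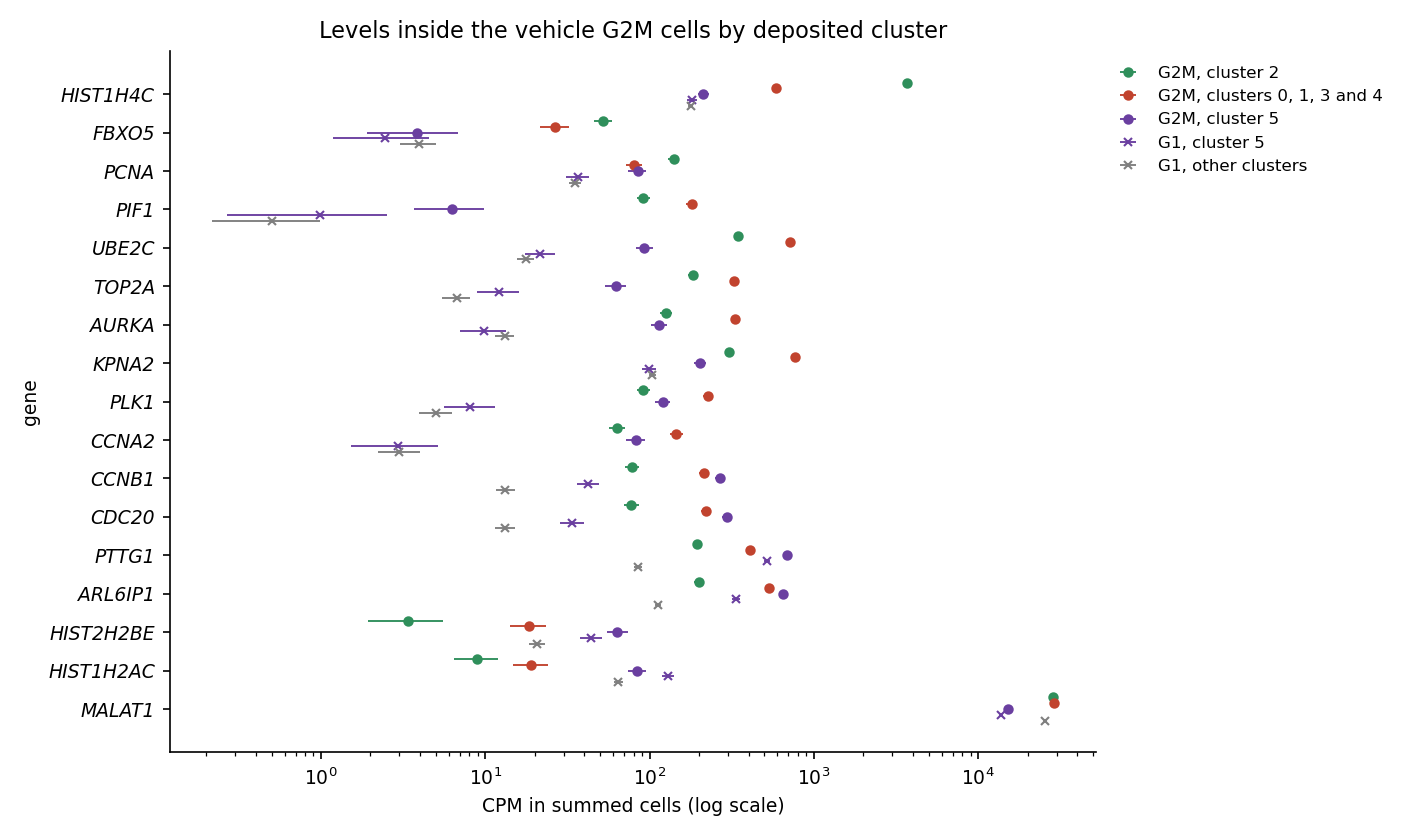
CPM in summed cells (x, log scale) of 17 genes in vehicle G2M cells of cluster 2, of clusters 0, 1, 3 and 4, and of cluster 5 (circles), and in G1 cells of cluster 5 and of the other clusters (crosses), with exact 95% counting intervals. HIST1H4C falls from 3675 in cluster 2 to 213 in cluster 5, while PTTG1 goes from 195 to 685.

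Cluster 5 also held 220 G1 cells (21.3% of G1), which shared part of this pattern. PTTG1 was at 518 CPM in them and 85.2 in the other G1 cells, MKI67 at 89.3 and 19.3, TUBA1B at 1946 and 676, and MALAT1 at 13697 and 25526. PLK1 was at 8.12 and 5.00 CPM and PIF1 at 0.984 and 0.500, far under their G2M levels. With these 220 cells left out of G1 the median log2 ratio of the unscored mitotic genes was 1.49, and 970 genes were higher and 401 lower. With cluster 5 left out of both phases the median was 1.57, and 1038 genes were higher and 562 lower.

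The G2M cells were also split by their deposited G2M score. Of all 9204 genes measured in this split, 498 were higher and 223 lower in the cells of highest than in those of lowest score. Of 141 unscored mitotic list genes 44 were higher and 1 lower, with a median log2 ratio of 0.30. The unscored gene of highest ratio in this split at 20 CPM or more was TNFAIP8L1, at 36.0 CPM against 3.17. PIF1 was at 17.3, 88.5 and 177 CPM in the 173 G2M cells of lowest, 172 of middle and 172 of highest score, and was detected in 20.8%, 51.7% and 76.2% of them at median depths of 19915, 21435 and 23432.5 UMIs. PLK1 was at 52.7, 123 and 238 CPM. HIST1H4C was at 2621, 2234 and 677 CPM, and E2F1, a factor of S phase entry, at 32.6 CPM in the lowest and 12.4 in the highest. TDO2 was at 24.2, 8.39 and 2.48 CPM, but 58 of its 84 UMIs in the cells of lowest score lay in 3 cells, and it had a UMI in 19, 7 and 8 cells in the same order. G2M cells with an S score above 0 had HIST1H4C at 2543 CPM, against 312 in the other G2M cells, and FAM111B, a protease of replicating cells, at 32.0 against 5.05.

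Markers of other cell types were near absent. Of 20 genes that mark blood, vessel, stromal and other cells, 8 were in the matrix and 1, COL1A1, reached 5 CPM, at a level that did not differ by 1.5-fold between G2M and G1 cells.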

How the data were processed

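Single-cell RNA of 1 vehicle and 1 cytokine-treated MDA-MB-453 library was processed by the authors with Cell Ranger 3.1.0 against GRCh38 and with Seurat 4.0.4, per the labels and the study's methods. The deposited values used were UMI counts per gene and cell, the mitochondrial percent of each cell, and the S and G2M scores with the phase call and cluster number. Cells were kept by the authors between 3000 and 5000 genes, under 50000 UMIs and under 15% mitochondrial UMIs, and genes were kept from 10 cells on. Such limits bear on dividing cells, which hold more RNA.

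Counts were summed over the cells of a phase and scaled to UMIs per 1000000 UMIs, CPM (Python 3.11.15, numpy 2.4.6, scipy 1.17.1, pandas 2.3.3). A gene was measured at 5 CPM or more in G1 or G2M cells. It was called higher or lower at 1.5-fold or more where the exact 95% interval of the ratio of both counts lay on the same side of 1. The intervals cover counting error only, since reads of 1 culture give no spread between cultures. The script was tested on simulated data. Named were the 4 markers, the 20 highest and 12 lowest unscored genes at 20 CPM or more, the 6 highest scored genes, mitotic list members past 1.5-fold, up to 2 members at each end of every other list, extremes within G2M cells, and 6 genes of the study. ANAPC2, ANAPC15, FOXA1, CHMP4B, COL1A1, H2AFX, HIST2H2BE, KRT8, KRT18, KRT19, LIN37, MALAT1, NSL1, NUMA1, RHOA, VPS4A and WEE1 were named after their values were seen. The cells and gene lists were chosen with earlier results of these data known. Some items are not reported here. Promoter sequences came from RefSeq (GRCh38.p14), and exon overlap from GENCODE. Alternatives used edgeR 4.0.16 for TMM factors, DESeq2 1.42.0 for size factors (R 4.3.3) and scanpy 1.11.5 to call phases again.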

Additional observations from a re-analysis of the deposited data

How the results depend on the processing

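The direction of the counts did not turn under other scalings, but their size and split did. For the count of genes higher in vehicle G2M cells and that of genes lower in vehicle G2M cells, UMIs per cell, which moved the median of all genes by 0.16 on the log2 scale, gave 1510 and 166. At a limit of 20 CPM 499 were higher and 98 lower, and at 1 CPM 571 were lower. At 2-fold 400 were higher and 61 lower, and at the lowest fold limit tried, under 1.5, 1972 and 946. Totals without ribosomal and mitochondrial genes gave 793 higher and 449 lower, so that 63.8% of calls were higher instead of 73.9%. Against S cells 545 genes were higher and 522 lower, and the median of the unscored mitotic genes was 0.49. With cluster 5 left out of both phases, an alternative chosen after seeing the data, 562 genes were lower and the ratio of median UMIs per cell was 1.27. The ratio of mean UMIs was 1.11. Phases called again on thinned counts gave 25.7% G2M cells (693 of 2697), and 486 of 489 deposited G2M cells were called G2M both times.

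Values of 245 named genes under 11 alternatives, 2695 in all, were labelled as stayed (2170), moved (498) or reversed (27). Only the 194 genes called between G2M and G1 could be labelled reversed. A change of sign in an uncalled gene was counted as stayed or moved. All 27 reversed values were against S cells. These log2 ratios of G2M over S were RAD54L -0.89, SASS6 -0.12, S100A8 0.29, LIN9 -0.35, RRM2 -0.12, CENPO -0.070, CDC25A -1.11, HIST1H2AC 1.13, HIST1H2BD 0.16, HIST1H4H 0.28, HIST1H3H 0.64, CENPQ -0.38, FBXO5 -0.18 and HSPB1 0.15. The others were CEP78 -0.047, MASTL -0.50, SMC3 -0.051, BUB3 -0.016, CDCA5 -0.14, ENO2 -0.20, LIN52 -0.081, CEP152 -0.0096, ZWILCH -0.11, HAUS1 -0.048, HAUS8 -0.38, DSN1 -0.45 and CDC45 -1.44. At least 106 unscored mitotic genes were higher than in G1 cells over the settings at 1.5-fold. This count left out the comparison with S cells and the other CPM limits. The cause of these changes was not tested.

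No paired analysis was possible because each condition had 1 library, and for the same reason leaving out a replicate was not run. Depth limits genes such as KYNU, with 35 UMIs in G2M cells.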

Other observations

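Further lists stand beside 10.3% higher and 3.64% lower over all measured genes, in G2M against G1 vehicle cells. Their counts are too small to be read as more or less than those shares. Of 23 sterol and lipid genes 1 was higher and 0 lower, SQLE, the squalene epoxidase of cholesterol synthesis, at 85.1 CPM in G1 and 145 in G2M cells. Of 16 glycolysis genes 1 was higher and 0 lower, ENO2, an enolase, at 9.63 and 16.3 CPM. Of 10 interferon and MHC genes 0 were higher and 2 lower, among them ISG15, an interferon-induced ubiquitin-like protein, at 106 and 69.9 CPM. Of 12 inflammatory genes TRAF2, an adaptor of TNF receptors, was higher (13.1 and 19.9 CPM) and S100A9 was lower. Of 15 lysosome and autophagy genes 0 were higher and 1 lower, WIPI1, at 11.9 and 7.06 CPM. Of 21 actin and adhesion genes 1 was higher and 0 lower. Of 25 genes of the unfolded protein response 0 were higher and 2, XBP1 and AGR2, lower. NEAT1 was the 1 lower gene of 11 nuclear long RNAs, and 0 of 13 mitochondrially encoded genes were called.

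Genes with a high ratio of variance to mean among G2M cells were not all genes of the cell cycle. On counts thinned to 14000 UMIs per cell, the ratio of variance to mean was 13.7 times the median of the 200 nearest genes for FTH1, the ferritin heavy chain, and 11.1 times for MT2A, a metallothionein that binds zinc. Neither was called between phases, with FTH1 at 12508 and 9661 CPM and MT2A at 2216 and 3046 CPM in G1 and G2M cells. HIST1H4C stood between MALAT1 and FTH1, at 15.4 times. These genes were all set against the same median, 2.05, although they ranged from 23.8 (HIST1H4C) to 349 (MALAT1) UMIs per cell. The ratio does not separate spread from level among them.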
